A study of Mus musculus with 8 samples.

Results

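The replication-dependent histone genes were taken as the 68 gene symbols of the form Hist1h to Hist4h followed by a histone class, out of 22609 genes in the count tables. They comprise 6 genes of the linker histone H1, 18 of H2A, 19 of H2B, 12 of H3 and 13 of H4. Of these, 54 belong to the Hist1 cluster, 10 to Hist2, 3 to Hist3 and 1 to Hist4. The iBmp2fx/fx cells are an immortalized line of mouse dental papilla cells with floxed Bmp2 alleles on both chromosomes, and the iBmp2ko/ko cells are the line with Bmp2 deleted. Each line was cultured for 6, 24, 48 and 72 h, and 1 library labelled total RNA was sequenced per genotype and time, 8 in all, so each genotype was represented by 1 line and the culture times served as its replicates. The design text gives 8 h where the sample labels give 6 h, and it names the TruSeq RNA preparation where the labels name the total RNA version. Whether poly(A) RNA was selected is therefore not settled, and if it was, the histone values below count polyadenylated transcripts and not the mRNA that ends in the stem-loop. The methods list 6, 48 and 72 h, so tests used these 6 libraries, 3 per genotype. The iBmp2ko/ko library of 24 h is given apart, also because its values stood apart from those of its line.

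Replication-dependent histone genes supply the histones that package newly copied DNA, and their mRNA normally accumulates during S phase. Most of these mRNAs end in a short stem-loop in place of a poly(A) tail. The stem-loop binding protein Slbp and the U7 snRNP guide the cut just after it, and the mRNA is rapidly degraded once DNA synthesis stops. Some members, Hist1h2bc and Hist2h2be among them, are also known to make polyadenylated transcripts in differentiated cells.

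The stem-loop was looked for in the mm9 genome (NCBIM37) on the strand of the gene, within 150 bases after the stop codon, as 16 letters that read GG, 3 of any base, TT, any base, T, any base, A, 3 of any base and CC. It was found in 60 of 66 members annotated as coding, which is 90.9%, against 0.251% of 22313 other coding genes. All 60 had 6 of 6 stem bases paired, and the stem-loop began 21 to 58 bases after the stop codon. The search letters set the outer pairs and the pair next to the loop, so only the 3 between could differ. Of the 8 forms found, 4 are shown because they are the commonest of H1, H2A, H2B and H3, its variant loop, the commonest of H4 and the form of the most abundant H4 member, with the 6-base arms of the stem in capitals.
Common form (36 members, among them Hist1h1c at chr13:23831381-23831396): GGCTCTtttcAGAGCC
Variant loop (9 members): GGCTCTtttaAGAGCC
H4 form (8 members): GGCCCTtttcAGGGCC
H4 variant loop (2 members, Hist1h4i at chr13:22132835-22132850 on the minus strand and Hist2h4): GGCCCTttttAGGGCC
The common form was held by 5 H1, 15 H2A, 9 H2B and 7 H3 members and by 0 of the H4 members. The letters were not in this window of Hist2h2be, Hist2h2bb, Hist1h2an, Hist1h2bp, Hist1h2bq or Hist1h2br. In RefSeq promoters of GRCm38.p6 (300 bases around the start), matched for 61 members, CCAAT on either strand was present in 52 members, or 85.2%, against 37.8% of 26964 other promoters. TATAAA was present in 30 members, or 49.2%, against 8.79%.

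The histone genes took a small share of the reads. Gene reads per library ranged from 25890110 to 32415665, and the histone genes together held 2035 to 6712 of them, or 0.00693% to 0.0243%. Of the 68 members, 62 had at least 1 read and 33 had at most 10 reads in every library. The other 6, Hist1h2ao, Hist1h2ap, Hist1h2bq, Hist1h2br, Hist1h4m and Hist2h2aa2, had 0 reads in all 8 libraries, where 3 reads, the limit that a count of 0 allows, would be 0.0929 to 0.124 CPM, the count scaled to a common library size with TMM factors. Limits and intervals of this kind cover counting error only. For comparison on a scale per length, the mean level over 8 libraries was 1085 CPM per kb of annotated exon for H1f0 and 162 for H3f3b, which encode a replication-independent linker histone and H3.3. The annotated exon length used for H1f0 was 534 bases. The annotation of the counting is not given, so a level per kb is too high where the counted exons were longer. The median over 12811 tested genes was 9.73, and 3 of 67 members with an annotated length lay above it. That median covers only genes past the count filter, which 51 of the 68 members failed for too few reads. The cause of this low level in libraries labelled total RNA was not tested.

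The reads came from few members. Hist1h1c, which encodes a linker histone, held 40.9% of all histone reads, and Hist1h2bc, an H2B gene, held 20.6%. The H2A gene Hist3h2a held 10.3%, the H3 gene Hist2h3c1 held 7.68%, Hist2h2be held 4.10% and the H4 gene Hist1h4i held 3.68%. These 6 members together took 81.6% to 91.1% of the histone reads of each library. Per length, Hist1h2bc was at 43.7 CPM per kb, Hist1h1c at 40.5, Hist1h4i at 10.8, Hist3h2a at 7.98, Hist2h3c1 at 3.96 and Hist2h2be at 2.41, as means over 8 libraries. The 3 members above the median of tested genes were Hist1h2bc, Hist1h1c and Hist1h4i.

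**Figure D1:**
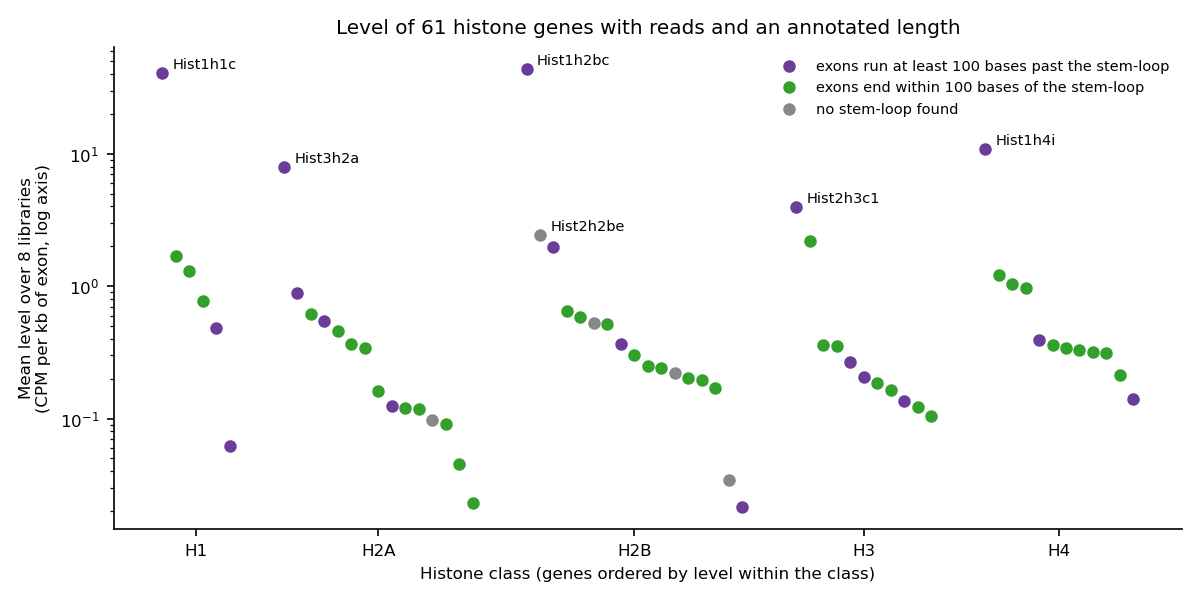
Mean level over 8 libraries of the 61 histone genes with reads and an annotated length, in CPM per kb of annotated exon on a log axis, ordered within each class and coloured by where the annotated exons end. Hist1h2bc (43.7) and Hist1h1c (40.5) lie far above the other members of their classes.

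Copies that are nearly identical limit what these counts hold. Of each member's 50-base windows, the length of the reads in the labels, the median share found once in the genome was 53.0%, and 30 members had less than 50%. For 6 members the share was 0%, and 5 of the 6 members without reads were among them. Alignments to more than 1 position made up 41.3% to 49.6% of all alignments and were not counted on genes, so members with few unique windows are undercounted and their levels cannot be ranked against the others. The methods name paired reads where the labels give single reads of 50 bases, and with paired reads these shares would differ. Annotated overlaps add to this. Hist3h2a shares 708 bases with Trim17 on its strand, Hist2h3c1 shares 562 with Hist2h2aa1, and the strand setting of the counting is not given in the sources used here. Among the 11 members with at least 90% unique windows, the mean level still ran from 0.0232 to 40.5 CPM per kb.

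The most abundant members shared an annotation feature. In 18 members the annotated exons run at least 100 bases past the stem-loop, and in 42 they end within 100 bases of it, a division chosen after the values were seen. Of the 6 most abundant members, 5 were among the 18, with 839 bases past the stem-loop in Hist1h1c, 313 in Hist1h2bc, 1487 in Hist3h2a, 1166 in Hist2h3c1 and 150 in Hist1h4i, and Hist2h2be was the sixth, without a match. The stem-loop of Hist1h2bc lies between its 2 annotated exons. The 18 members held 87.8% of all histone reads and the 42 held 5.75%. The 42 members had 156, 178, 205 and 297 reads in the iBmp2fx/fx libraries of 6, 24, 48 and 72 h, and 161, 419, 136 and 508 in the iBmp2ko/ko libraries. Their highest level was 2.21 CPM per kb, in Hist1h3g. Per length the medians of both groups were close, at 0.439 CPM per kb for the 18 and 0.308 for the 42. In reads per library the medians were 21.9 and 3.38. The 18 were set apart by exons that run on past the stem-loop, and this added length lowers their level per kb. Of the 11 members with at least 90% unique windows, 4 were among the 42 (Hist1h1a, Hist1h1b, Hist1h2aa and Hist4h4), and their median was 9.19 reads per library.

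**Figure D2:**
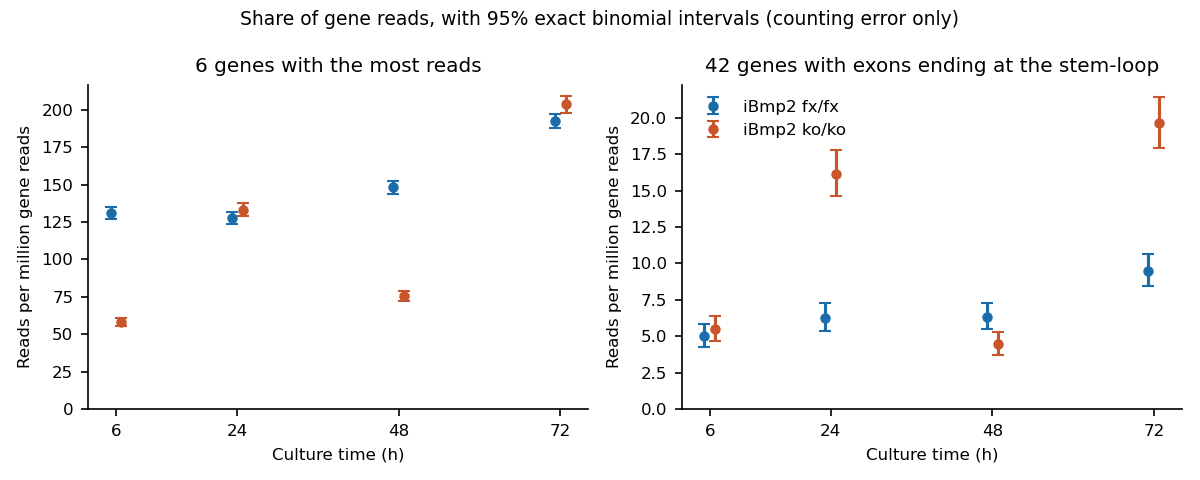
Share of gene reads in each library, as CPM before TMM scaling, against culture time, for the 6 members with the most reads and for the 42 members whose annotated exons end at the stem-loop, with 95% exact binomial intervals. In the 42 members the iBmp2ko/ko libraries of 24 h (16.1) and 72 h (19.6) stand above the other 6 libraries, which lie between 4.45 and 9.49.

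The summed level of all members was 140.1, 143, 168 and 219 CPM in iBmp2fx/fx cells at 6, 24, 48 and 72 h. In iBmp2ko/ko cells it was 66.6, 159, 85.8 and 259 CPM. The libraries of iBmp2ko/ko cells were thus the lowest and the highest of the 8, and the genotypes overlapped. These libraries also differed in their alignments. The share at more than 1 position was 48.4% and 49.6% in the iBmp2ko/ko libraries of 6 and 72 h against 41.3% to 45.6% in the other 6, and the share outside annotated genes was 12.5% in that of 48 h against 8.22% to 10.7% in the rest. Their part in the histone values was not tested. Over 6, 48 and 72 h the mean was 176 ± 40.3 CPM in iBmp2fx/fx cells and 137 ± 106 in iBmp2ko/ko cells (SD, n = 3). The iBmp2ko/ko mean was 76.2 CPM without the library of 72 h and 173 without that of 6 h. The level in iBmp2ko/ko cells divided by that in iBmp2fx/fx cells was 0.475, 1.11, 0.511 and 1.18 in the order of the culture times. By exact binomial intervals at 95%, the share of gene reads at 6 h, as CPM before TMM scaling, was 139 to 148 in iBmp2fx/fx cells and 66.3 to 72.3 in iBmp2ko/ko cells, so counting error was small beside these differences, while each rests on 1 library per side. In bulk RNA, fewer cells in S phase and less histone RNA per cell cannot be told apart.

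Hist1h1c made up most of the H1 class. The summed H1 level was 67.4, 74.1, 73.9 and 105 CPM in iBmp2fx/fx cells and 18.9, 72.2, 27.0 and 105 CPM in iBmp2ko/ko cells. H2B was at 34.2, 30.2, 42.2 and 68.2 CPM against 19.5, 39.7, 27.3 and 82.1. In both classes the iBmp2ko/ko libraries of 6 and 48 h were the lowest of the 8. H3 was at 16.3, 17.2, 28.0 and 15.5 CPM in iBmp2fx/fx cells and at 7.40, 19.1, 10.4 and 21.2 in iBmp2ko/ko cells. The H3 class alone had its highest level in the iBmp2fx/fx library of 48 h. H2A was at 16.7, 16.1, 17.8 and 19.0 CPM in iBmp2fx/fx cells and at 15.4, 17.8, 17.1 and 33.2 in iBmp2ko/ko cells. H4 was at 5.46, 5.32, 6.13 and 11.8 CPM in iBmp2fx/fx cells and at 5.40, 9.90, 3.92 and 17.8 in iBmp2ko/ko cells. At 6 h the H2A and H4 levels of the genotypes were close, with ratios of 0.922 and 0.990, where H1 stood at 0.280. The other classes also rested mostly on a single member each. Of all histone reads, Hist1h2bc held 20.6% where H2B held 27.6%, and Hist2h3c1 held 7.68% where H3 held 11.0%. Hist3h2a held 10.3% where H2A held 12.4%, and Hist1h4i held 3.68% where H4 held 5.20%. Sums without the top member of each class had ratios of 0.855, 1.92, 0.687 and 1.74 at 6, 24, 48 and 72 h.

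**Figure D3:**
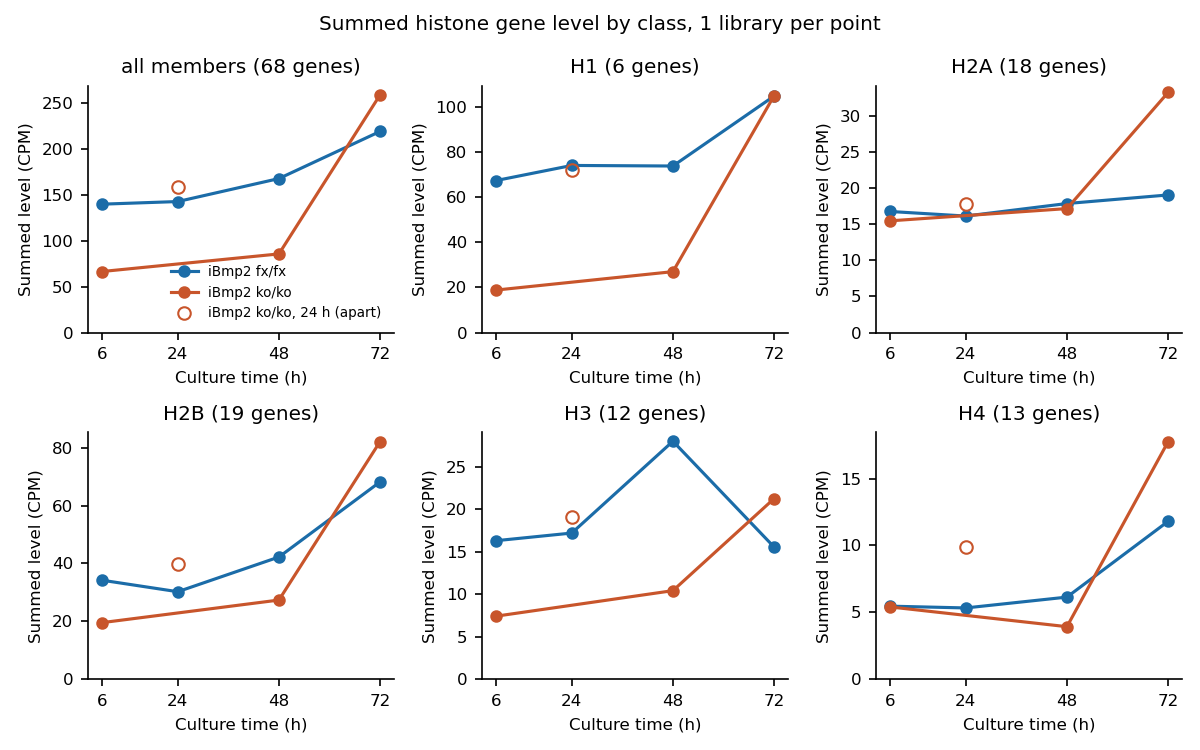
Summed level in CPM of all members and of each class against culture time, with 1 library per point, lines joining the libraries of a genotype and the iBmp2ko/ko library of 24 h as an open circle. In H1, H2B and H3 the iBmp2ko/ko libraries of 6 and 48 h lie below all iBmp2fx/fx libraries.

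The comparison of genotypes was run by edgeR's quasi-likelihood test over 13121 genes, and 17 of the 68 members passed its count filter. The other 51 had too few reads and were not tested. Hist1h1c was at 65.5, 71.1, 69.8 and 98.9 CPM in iBmp2fx/fx cells and at 17.5, 65.8, 24.6 and 92.7 in iBmp2ko/ko cells. Its ratio between genotypes was 0.268 at 6 h and 0.353 at 48 h, but 0.927 at 24 h and 0.938 at 72 h. Over 6, 48 and 72 h the log2 fold change was -0.83 (SE 0.58) with a Benjamini-Hochberg adjusted p of 0.606 by edgeR's quasi-likelihood test. Hist2h3c1 was at 12.3, 13.2, 20.7 and 10.3 CPM against 4.35, 12.9, 7.39 and 12.3. Its log2 fold change of -0.87 (SE 0.42) had the smallest adjusted p of the 17, 0.432 by the same test in edgeR. Hist1h2bc was at 24.9, 22.4, 33.4 and 56.9 CPM in iBmp2fx/fx cells and at 10.8, 25.2, 19.0 and 64.4 in iBmp2ko/ko cells, a log2 fold change of -0.32 (SE 0.63). For each of these 3 genes the iBmp2ko/ko libraries of 6 and 48 h were below all 4 iBmp2fx/fx libraries, and that of 72 h was not.

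None of the 17 tested members reached both a log2 fold change of 1 or more in size and an adjusted p of 0.05 or less in edgeR, where 0.899% of all genes tested were higher and 1.29% lower in iBmp2ko/ko cells. When the p was left unadjusted and under 0.05, with a fold change above 1 on the log2 scale in size, again 0 members passed, against 3.31% higher and 4.04% lower, and at an unadjusted p under 0.05 alone 0 members passed, against 6.66% and 7.33%. DESeq2 and limma also called 0 members at an adjusted p of at most 0.05. Log2 fold changes ranged from -0.87 to 0.81, with a median of 0.14 beside 0.03 over all genes tested, and 11 were above 0 and 6 below. With culture time as a block the median was -0.16 beside 0.02, with 6 above 0 and 11 below. In that fit, which the pairing of libraries by time allowed, Hist1h1c was lower in iBmp2ko/ko cells with a log2 fold change of -1.16 (SE 0.29) and an adjusted p of 0.0281 by edgeR's quasi-likelihood test. It was the 1 member with an adjusted p of 0.05 or less, which 11.4% of all genes lower and 11.3% higher had in that fit, and 4.67% and 3.78% also had a log2 fold change of 1 or more in size. It was also the 1 member past a log2 fold change of 1 at an unadjusted p under 0.05, against 5.24% of genes lower, and 3 members were lower at that p alone, against 18.8%. With the block over all 8 libraries, 2 of 19 tested members were higher at that p, against 13.1% of genes, and 1 was lower, against 11.7%. Without the iBmp2ko/ko library of 72 h the median fell to -1.12, 6 members were lower at an unadjusted p under 0.05 against 8.58% of genes, and Hist1h1c passed the adjusted limit at -1.89 (adjusted p 0.0215, edgeR). Without that of 6 h its log2 fold change was -0.41 (adjusted p 0.87, edgeR).

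The members kept different distances between genotypes. Hist3h2a was at 14.2, 13.7, 14.9 and 14.9 CPM in iBmp2fx/fx cells, a narrow range, and at 14.0, 13.8, 15.3 and 26.2 in iBmp2ko/ko cells. Hist2h2be was at 6.40, 4.12, 5.17 and 7.03 CPM against 5.66, 6.90, 5.90 and 9.38. Hist1h4i was at 4.23, 3.76, 4.86 and 9.19 CPM against 3.67, 4.95, 2.79 and 12.8. The genotypes overlapped in all 3 genes, with log2 fold changes of 0.32 (SE 0.26), 0.16 (SE 0.29) and 0.04 (SE 0.61). Hist2h3c2-ps, annotated as a pseudogene copy by its name, was at 2.54, 2.34, 5.17 and 2.45 CPM against 1.60, 2.66, 1.72 and 2.89, with its highest value in the iBmp2fx/fx library of 48 h like Hist2h3c1. Of the 17 tested members, 14 were lower in iBmp2ko/ko cells at both 6 and 48 h, against 35.6% of genes tested, and 16 were higher at 72 h, against 57.3%. Over all 68 members, those at 0 included, the counts were 25 and 51, and among those with at least 3 reads in each library compared they were 17 of 23 and 34 of 39. At 24 h, 13 of the 17 were higher in iBmp2ko/ko cells, against 52.6% of genes, as were 32 of the 37 members with at least 3 reads in both libraries. The 3 iBmp2ko/ko libraries lay all above the 3 iBmp2fx/fx libraries in 0 of the 17 and all below them in 0, against 9.92% and 10.1% of genes.

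**Figure D4:**
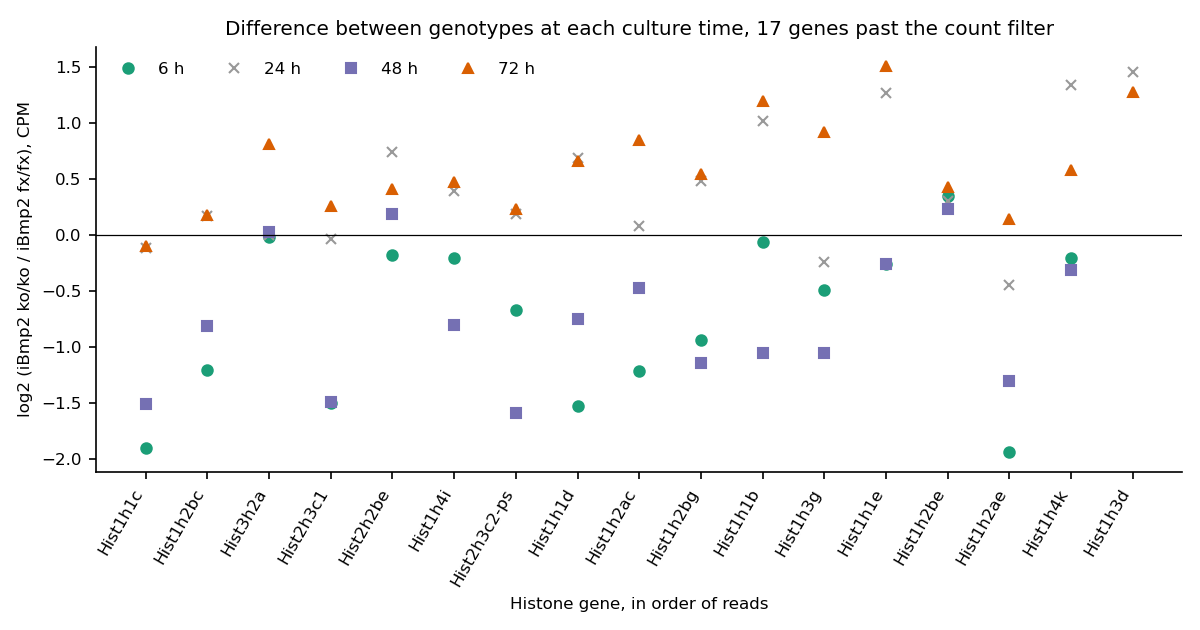
Log2 ratio of CPM between iBmp2ko/ko and iBmp2fx/fx cells at each culture time for the 17 members past the count filter, ordered by reads, with points left out where either library had 3 reads or fewer. Points of 6 and 48 h lie mostly below 0 and those of 72 h above it, for 16 of the 17 members.

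Of the 62 members with reads, 29 had their highest CPM in the iBmp2ko/ko library of 72 h, as did 24.9% of all 18354 genes with reads. The iBmp2ko/ko library of 24 h was the highest for 23 members and for 8.24% of all genes, and the iBmp2fx/fx library of 72 h for 5 members and 11.2%. The 62 members other than the 6 most abundant summed to 12.5, 14.7, 19.2 and 22.3 CPM in iBmp2fx/fx cells and 10.5, 29.2, 10.9 and 41.6 in iBmp2ko/ko cells. The number of members with at least 10 reads was 15, 17, 17 and 22 in iBmp2fx/fx cells and 15, 30, 15 and 28 in iBmp2ko/ko cells. Hist2h2bb had 8, 13, 4 and 8 reads in iBmp2fx/fx cells and 22, 61, 0 and 54 in iBmp2ko/ko cells, and it was picked here after its values were seen. Hist1h4h, the H4 member with the next most reads after Hist1h4i, had 7, 8, 9 and 14 reads against 6, 24, 7 and 26. Hist1h4d, picked like Hist2h2bb, had 8, 10, 3 and 7 reads against 16, 35, 2 and 10. The iBmp2ko/ko library of 48 h was the lowest of its line in Hist2h2bb and Hist1h4d.

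Of the remaining H1 genes, Hist1h1a had 9, 5, 6 and 27 reads in iBmp2fx/fx cells and 8, 18, 3 and 50 in iBmp2ko/ko cells, and Hist1h1e was at 0.470, 0.745, 0.465 and 0.916 CPM against 0.393, 1.8, 0.389 and 2.60. Both were highest in the iBmp2ko/ko library of 72 h, and Hist1h1e had its next highest level in that of 24 h. Genes known from testis had few reads. Hist1h1t had at most 4 reads, Hist1h2aa at most 1 and Hist1h2ba 1 to 15 in a library. In the small clusters, Hist3h2ba had at most 1 read, Hist3h2bb-ps at most 2 and Hist4h4 at most 10, the latter in the iBmp2ko/ko library of 72 h.

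With culture time, all 17 tested members had a positive slope over 6, 48 and 72 h, with a median of 0.33 on the log2 scale per doubling of time beside -0.00097 over all genes tested. At an unadjusted p under 0.05, 6 members were higher with time and 0 were lower, against 10.9% and 10.2% of genes tested. None passed an adjusted p of 0.05 in edgeR, nor did any of the 13121 genes, and the smallest adjusted p of a member was 0.178, for Hist1h1d. DESeq2 called 3 members at that limit, Hist1h2bc, Hist1h1b and Hist1h1d, against 4.89% of genes higher with time. The count of 6 became 0 without the iBmp2ko/ko library of 6 h, against 2.62% of genes, and 14 of 22 tested members without that of 48 h, against 17.3%. A cause for this was not tested.

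The H1 genes Hist1h1d and Hist1h1b had the largest slopes of the 17. Hist1h1d was at 0.753, 1.28, 2.23 and 2.68 CPM in iBmp2fx/fx cells and at 0.262, 2.06, 1.33 and 4.25 in iBmp2ko/ko cells, a slope of 0.74 (SE 0.17). Hist1h1b was at 0.376, 0.887, 1.21 and 1.44 CPM against 0.360, 1.8, 0.583 and 3.30, a slope of 0.65 (SE 0.19). In iBmp2fx/fx cells both were higher at each later time, and in iBmp2ko/ko cells the library of 24 h stood above that of 48 h. Hist1h2bc had a slope of 0.43 (SE 0.14) and was 2.28 times as high at 72 h as at 6 h in iBmp2fx/fx cells and 5.95 times in iBmp2ko/ko cells. Hist1h2ac, an H2A gene, was at 0.909, 0.603, 1.30 and 2.13 CPM against 0.393, 0.638, 0.940 and 3.84, a slope of 0.52 (SE 0.19). The other members at an unadjusted p under 0.05, named after their values were seen, were Hist1h3g with a slope of 0.53 (SE 0.19) and Hist1h4k with 0.46 (SE 0.15). The level at 72 h was above that at 6 h in both genotypes for 14 of the 17, against 42.7% of genes tested, and for 21 of the 27 members with at least 3 reads in the 4 libraries, and it was below in both for 0 of the 17, against 40.7%.

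Hist1h1c was 1.51 times as high at 72 h as at 6 h in iBmp2fx/fx cells and 5.29 times in iBmp2ko/ko cells, and the sum over all members 1.57 and 3.89 times. Whether the slopes differed between genotypes was tested as an interaction, which had 2 residual degrees of freedom. It called 0 of 17 members at an adjusted p of 0.05 and 0 at an unadjusted p under 0.05 in edgeR, where 0.290% and 0.191% of genes had a higher or lower slope in iBmp2ko/ko cells at the unadjusted limit and 0 genes passed the adjusted one. Of the 17 interaction terms, 16 were positive. Without the iBmp2ko/ko library of 6 h, 10 of 20 tested members were at an unadjusted p under 0.05 in that direction, against 5.03% of genes, and without that of 48 h 2 of 22 were, against 0.601%.

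The genes that make, protect and degrade histone mRNA are given beside the shares of all genes tested, which at an unadjusted p under 0.05 were 6.66% higher and 7.33% lower in iBmp2ko/ko cells. Slbp, which binds the stem-loop, was at 163, 170, 190 and 173 CPM in iBmp2fx/fx cells and at 164, 168, 173 and 162 in iBmp2ko/ko cells, a log2 fold change of -0.08 (SE 0.16). Npat, the coactivator of histone transcription, was at 76.9, 109, 103 and 94.8 CPM against 48.9, 86.1, 99.2 and 75.1, a log2 fold change of -0.31 (SE 0.27). Of 21 tested genes for histone transcription and mRNA processing, 0 were higher and 1 was lower at an unadjusted p under 0.05, and of 16 for histone mRNA decay 0 were higher and 1 lower. Eri1, the exonuclease that trims the stem-loop, was at 107 to 146 CPM over the 8 libraries. Of 19 histone chaperones 2 were higher and 0 lower. In the edgeR fits without a block, 0 genes of these 3 lists had an adjusted p of 0.05 or less for genotype, against 0.915% of all genes higher and 1.3% lower, and 0 had one for time. With culture time as a block, 2 of the 21 were lower (Casp8ap2 and Gon4l), 1 of the 16 was higher (Pnpt1) and 2 lower (Zcchc6 and Zcchc11), and 3 of the 19 were higher (Nap1l1, Daxx and Asf1a) at that limit, genes named after their values were seen. That fit called 11.3% of all genes higher and 11.4% lower.

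Among 12 replication-independent histone variants, 0 were higher and 2 lower in iBmp2ko/ko cells at an unadjusted p under 0.05, against 6.66% and 7.33% of all genes. None of the 12 passed the adjusted limit without a block, and 3 were lower at that limit with culture time as a block, against 11.4%. H1f0 was at 757, 603, 552 and 705 CPM in iBmp2fx/fx cells and at 429, 733, 386 and 470.0 in iBmp2ko/ko cells. The 3 tested iBmp2ko/ko libraries lay below all iBmp2fx/fx libraries and that of 24 h above 3 of the 4, with a log2 fold change of -0.66 (SE 0.20) and an adjusted p of 0.208 by edgeR's quasi-likelihood test. With culture time as a block it was lower, with a log2 fold change of -0.64 (SE 0.11) and an adjusted p of 0.00792 in edgeR. H2afx, which marks damaged DNA when phosphorylated, was at 142, 152, 146 and 191 CPM against 139, 134, 149 and 254. H2afz was at 35.1 to 51.8 CPM and H3f3a at 44.2 to 71.7 over the 8 libraries.

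Genes of the cell cycle are set beside the histones because histone mRNA is tied to S phase. The 46 DNA replication genes summed to 7853 to 9008 CPM over the 8 libraries, a spread of 1.15 times, where the histone genes ranged from 66.6 to 259. At an unadjusted p under 0.05, 1 of the 46 was higher and 2 were lower in iBmp2ko/ko cells, against 6.66% and 7.33% of all genes, and 5 were higher and 1 lower with time, against 10.9% and 10.2%. With culture time as a block, 2 of the 46 were higher and 4 lower between genotypes at an adjusted p of 0.05 or less in edgeR, against 11.3% and 11.4% of all genes, and 0 were without it. Pcna, the sliding clamp of DNA polymerase, was at 168, 153, 179 and 124 CPM against 145, 172, 164 and 123. The 18 mitosis genes summed to 2636, 3295, 2632 and 4527 CPM in iBmp2fx/fx cells and to 2452, 2735, 3188 and 4613 in iBmp2ko/ko cells, highest at 72 h in both. The iBmp2ko/ko libraries of 6 and 48 h, the lowest of the 8 for the histone sum, were at 0.930 and 1.21 times the iBmp2fx/fx libraries of the same times for the mitosis sum. Mki67, a marker of cycling cells, had a slope of 0.27 (SE 0.07), Ccne2, a cyclin of S phase entry, 0.36 (SE 0.06) and Ccna2 0.22 (SE 0.09), none past the adjusted limit. Ccne1 was at 33.2, 33.9, 44.2 and 53.6 CPM against 34.1, 32.9, 32 and 75.8. Of 10 cell cycle inhibitors, 1 was higher and 0 lower in iBmp2ko/ko cells at an unadjusted p under 0.05. After adjustment 0 of these 10 and 0 of the 18 mitosis genes were called in edgeR, and with the block 1 was higher and 1 lower in each list, against 11.3% and 11.4%.

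**Figure D5:**
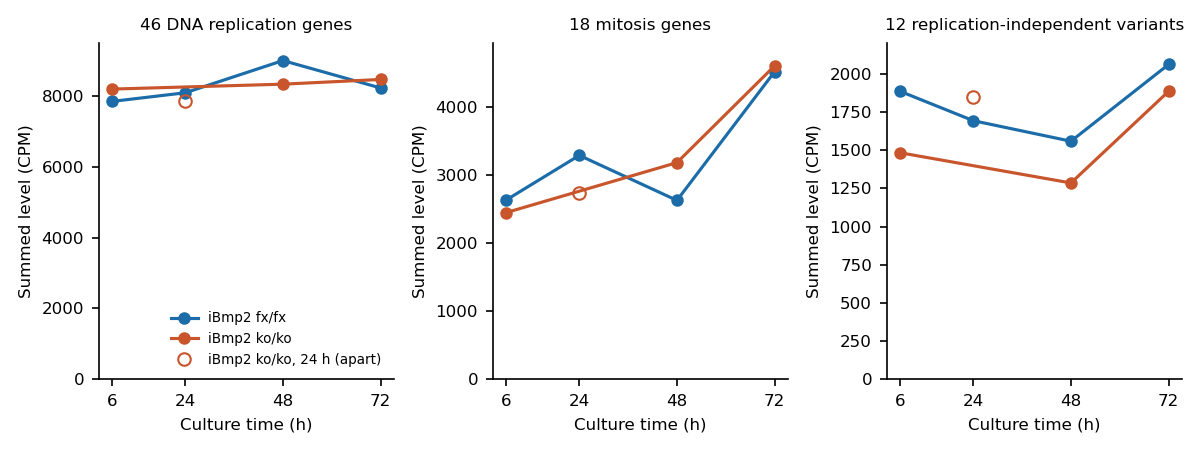
Summed level in CPM of DNA replication genes, mitosis genes and replication-independent histone variants against culture time, drawn as for the histone classes. The DNA replication genes stay between 7853 and 9008 CPM, and the mitosis genes are highest at 72 h in both genotypes.

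Of 13 other RNAs listed as lacking a poly(A) tail, 8 were present in the tables and 5 were tested. Their sum ran from 787 to 4376 CPM and was mostly the long nuclear RNA Malat1, at 975, 1987, 2449 and 1640.4 CPM in iBmp2fx/fx cells and 639.5, 1633, 4111 and 929 in iBmp2ko/ko cells. Neat1 was at 109.7 to 372 CPM over the 8 libraries, and the remaining 6 were at 22.7 CPM or less in every library. Rmrp, the RNA of RNase MRP, was at 2.16, 8.73, 1.67 and 1.5 CPM in iBmp2fx/fx cells and at 17.5, 22.7, 2.17 and 13.3 in iBmp2ko/ko cells. Rpph1, the RNA of RNase P, was at 1.25, 4.76, 0.868 and 0.719 CPM against 12.5, 4.99, 1.49 and 11.6. Both were higher in the iBmp2ko/ko libraries of 6 and 72 h than in any iBmp2fx/fx library, with log2 fold changes of 2.62 (SE 0.70) and 3.16 (SE 0.76) and adjusted p values of 0.142 and 0.109 by edgeR's quasi-likelihood test. With culture time as a block they were higher, by 2.28 (SE 0.50) and 2.83 (SE 0.53), with adjusted p values of 0.0176 and 0.010 in edgeR, and Neat1 was lower. Whether the histone values vary with these RNAs was not tested.

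The labelled genotype could not be checked on its target, since Bmp2 had 1 read in the iBmp2fx/fx library of 24 h and 0 in every other library. Of the dental mesenchyme markers, 11 of 13 were tested, summing to 4929 to 8123 CPM over the 8 libraries, mostly from Col1a1 and Vim, while Lhx8 and Barx1 were at 1 read or less. At an unadjusted p under 0.05, 1 of the 11 (Vim) was higher and 3 (Msx1, Dlx1 and Dlx2) were lower in iBmp2ko/ko cells, against 6.66% and 7.33% of all genes. None of the 11 passed the adjusted limit without a block, and with culture time as a block Vim was higher and 4 (Msx1, Dlx1, Dlx2 and Runx2) were lower at that limit, against 11.3% and 11.4%. Summed markers of odontoblasts were at 14.6 to 65.7 CPM in iBmp2fx/fx cells and at 1.78 to 15.2 in iBmp2ko/ko cells, with the iBmp2ko/ko library of 24 h the highest of its line. Of these 6 markers 4 were tested, and 0 were higher and 2 lower at an unadjusted p under 0.05. Alpl, the phosphatase of mineralizing cells, was lower with an adjusted p of 0.0153 by edgeR's quasi-likelihood test, a limit that 1.3% of all genes passed as lower. With the block, Sp7, an osteoblast and odontoblast transcription factor, was lower as well, with an adjusted p of 0.00083 in edgeR against 0.0505 without it. No other tested marker of this list passed the adjusted limit in either fit. Markers of dental epithelium summed to 0.745 to 1.85 CPM in iBmp2fx/fx cells and 0.496 to 1.8 in iBmp2ko/ko cells. Those of endothelium summed to 1.5 to 2.95 and 0.867 to 2.18 CPM, and those of leukocytes to 4.19 to 14.2 and 2.78 to 6.08. Over all 8 libraries the genotypes thus overlapped in each list, but only through the libraries of 24 h. At 6, 48 and 72 h the iBmp2ko/ko sums lay below all iBmp2fx/fx sums in each list. Their highest values were 0.982, 1.13 and 3.37 CPM for epithelium, endothelium and leukocytes. The lowest iBmp2fx/fx values at these times were 1.01, 1.5 and 4.19 CPM. The 4 markers of these 3 lists that could be tested (Krt14, Kdr, Cd68 and Csf1r) were each lower in iBmp2ko/ko cells at an unadjusted p under 0.05. Their log2 fold changes were -1.39, -1.32, -1.43 and -1.62, 0 passed the adjusted limit without the block, and all 4 passed it with the block. Markers of testis summed to at most 0.131 CPM. The part of these cell types in the histone values was not tested.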

How the data were processed

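The 4 libraries per genotype, labelled as total RNA of 6, 24, 48 and 72 h and with poly(A) selection not settled by the sources used here, had been aligned by the authors to mm9 with TopHat2 2.0.8b after CASAVA 1.8.2 and counted with HTSeq, as given in the submitters' processing notes. The deposited tables hold raw read counts per gene symbol, as the authors' counter wrote them, without normalization. The annotation and strand setting of the counting are not given in the sources used here. The 5 summary counters of each table were left out of library sizes, and the 8 lncRNA tables were not used. The members and all gene lists were chosen with earlier results of these data known.

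Counts were normalised by TMM and tested in R 4.3.3 with edgeR 4.0.16 (quasi-likelihood test, Benjamini-Hochberg adjustment over all genes tested, filter of at least 10 counts and 15 in total). The 6 libraries of 6, 48 and 72 h entered the fits of genotype, of log2 culture time with genotype, and of their interaction. Culture times stand in for replicates, and no label states separate cultures, so p-values measure the spread between these libraries. Libraries of the same time deviated together from their genotype mean (correlation across genes 0.735 at 6 h, 0.572 at 48 h and 0.866 at 72 h over the 6 libraries, and -0.288 at 24 h over all 8), so the fit with time as a block is given where it changes a call. The pairing comes from the culture times of the labels.

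CPM values use TMM library sizes of all 8 libraries, and intervals of shares of gene reads are exact binomial (Clopper-Pearson). With gene reads of 25890110 to 32415665 per library, 3 reads are 0.0929 to 0.124 CPM on the TMM scale. Lengths, positions and stem-loops came from GENCODE M1 and the mm9 genome, which matched 67 of 68 members by symbol, and promoters from RefSeq on GRCm38.p6. The exons that the authors counted may differ from these. Genes named in the text are the 2 members with most reads in each class, all H1 members, the Hist3 and Hist4 clusters, members known from testis or for poly(A) transcripts, listed companions, and a few others picked with their values in view, which the text marks. The alternatives were culture time as a block, all 8 libraries, DESeq2 1.42.0, limma 3.58.1 with an offset of 0.5, other filters and scalings, time in hours, leaving out each library in turn, and sums over subsets of members. The other divisions at the stem-loop, the trends within 1 genotype and leaving out libraries in the interaction were added after seeing the data. On simulated counts the genotype test found 63 of 63 genes changed 4-fold, 60 of 66 changed 2-fold and 25 of 65 changed 1.5-fold among 13045 genes, with 9 false calls, and the time test found 62 of 62, 58 of 66 and 18 of 66 among 13047, with 4. The members, most of them with fewer reads and larger SE than most genes, need not reach this recovery. Hist1h1c, the member with the most reads, also had a genotype SE of 0.58 on the log2 scale. Summaries used Python 3.11.15, numpy 2.4.6, pandas 2.3.3, scipy 1.17.1 and matplotlib 3.10.9.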

Additional observations from a re-analysis of the deposited data

Results flagged for a closer look

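In each genotype, the level of 74 genes, classes and lists was compared over its 4 libraries, and 11 had 1 library far from the other 3. Chance flags about 1 in 20 such groups, and the groups share genes and libraries. In iBmp2ko/ko cells the library of 72 h stood apart, high, for the H2A class at 33.2 CPM, Hist3h2a at 26.2 CPM, Hist1h2ac at 3.84 CPM, Hist1h3g at 3.22 CPM, H2afx at 254 CPM and Ccne1 at 75.8 CPM. In iBmp2fx/fx cells the library of 72 h stood apart, high, for Hist1h1c at 98.9 CPM and the H4 class at 11.8 CPM. The iBmp2fx/fx library of 48 h stood apart for the H3 class at 28.0 CPM. The iBmp2fx/fx library of 24 h stood apart for Rmrp at 8.73 CPM and Rpph1 at 4.76 CPM. All 11 were higher than the rest of their group.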

How the results depend on the processing

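Of the 17 tested members, 0 differed between genotypes in edgeR at an unadjusted p under 0.05, and the count lower in iBmp2ko/ko cells ranged from 0 to 6, also past an absolute log2 fold change of 1, when 1 library was left out, with 0 to 1 higher by either rule and 0 to 1 lower at the adjusted limit. The 6 and the 1 came without the iBmp2ko/ko library of 72 h, and the 1 higher without that of 48 h. The median log2 fold change ranged from -1.12 to 0.54. When culture time was a block over 6 libraries, 3 members were lower at an unadjusted p under 0.05, 1 of them past the log2 limit of 1, and 1 passed after adjustment. Under the block over all 8 libraries, 2 were higher, both past the log2 limit of 1, and 1 was lower. The block changed no other count of members. Hist1h1c ranged from -1.89 to -0.41. Log2 fold changes near 0 turned sign. Hist1h4i went from 0.04 to -0.16 and -0.025 with the block over 6 and 8 libraries, to -0.18 with limma, and ranged from -0.92 to 0.48 with 1 library left out, below 0 without the iBmp2fx/fx library of 6 or 48 h or the iBmp2ko/ko library of 72 h. Hist1h2bc ranged from -1.37 to 0.12, above 0 without the iBmp2fx/fx library of 72 h or the iBmp2ko/ko library of 6 h. Hist2h2be ranged from -0.11 to 0.30 and Hist3h2a from -0.0076 to 0.49, both below 0 without the iBmp2ko/ko library of 72 h.

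For the time trend, 6 members were higher at an unadjusted p under 0.05, 11 with time in hours, against 14.9% of genes, and 0 to 14 with 1 library left out, and DESeq2 called 3 at the adjusted limit. The slope of Hist2h2be was -0.0049 in iBmp2fx/fx cells alone. The interaction called 0 to 10 members at an unadjusted p under 0.05, with 10 without the iBmp2ko/ko library of 6 h and 2 without that of 48 h. The mean summed level in iBmp2fx/fx cells was 103 CPM over members with at least 90% of windows shared with no other member, and without the top member of each class it was 24.2 CPM, against 28.0 in iBmp2ko/ko cells. Members ending within 300 bases of the stem-loop summed to 15.6 CPM in iBmp2fx/fx cells, against 6.99 at 100 bases. Causes were not tested. Single members with fewer than 3 reads in a library cannot be compared at this depth, as Hist1h3d in iBmp2ko/ko cells at 6 and 48 h.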
